A study of Mus musculus with 31 samples.

Results

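Tanycytes are elongated ependymal cells that line the floor and lower walls of the third ventricle of the hypothalamus, with a cell body at the ventricle and a long process that reaches into the brain tissue or down to blood vessels. They carry nutrients and hormones between cerebrospinal fluid, blood and hypothalamic neurons, control the local supply of thyroid hormone, and keep features of radial glia and neural stem cells in the adult. The genes described here are 10 genes known from tanycytes: the transcription factors Rax and Lhx2, the intermediate filaments Vim and Nes, the membrane collagen Col23a1, the matrix proteoglycan Vcan, the orphan receptor Gpr50, the sodium channel Scn7a, and the secreted proteins Frzb and Adm. They were chosen by name and matched to the deposited table by gene identifier, 10 of 54532 genes in all, and all 10 passed the filter on low counts that left 18743 genes to test. Rax and Gpr50 are the more restricted of them in this tissue, whereas Vim, Nes, Vcan and Adm are also made by astrocytes, blood vessels, oligodendrocyte precursors or other cells.

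RNA of the whole hypothalamus was sequenced from C57BL/6J mice, an inbred strain, at 4 months of age. Their dams ate either a control (CON) diet or an obesogenic (OB) diet high in fat and sugar through pregnancy and lactation, and the offspring were weaned on postnatal day 21 to chow. Every animal, including the offspring of control dams, then received the OB diet for 4 weeks beginning at 3 months, so all groups shared that adult exposure and differed in the diet of the dam. The groups were CON Female (8 libraries), CON Male (8), OB Female (7) and OB Male (8). The numbers of libraries within a group only name them. Neither animals nor litters are named in the labels, so p-values measure the spread between these libraries, which may be partly technical or shared by littermates. Levels are read pairs relative to the size of the library (CPM), scaled with edgeR's TMM factors. In bulk tissue, fewer cells of a type and less RNA per cell cannot be told apart.

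Library totals ranged from 23118626 to 38547288 read pairs, so that 1 pair was worth 0.0259 to 0.0433 CPM of the total. 3 libraries (CON Female 5, CON Male 6 and OB Female 3) stood apart, with median correlations to the others of 0.910 to 0.936 against 0.967 to 0.979 for the rest. OB Female 3 and CON Male 6 also had reads in fewer genes, 18513 and 18734, against 21311 to 22918 in every other library. In addition, 2 libraries (CON Female 7 and CON Male 7) had Xist and Y-linked reads that went against their sex label. Results are given over all 31 libraries, as labelled, and over the 26 libraries in neither set. The tissue label was checked with marker genes: the summed level of 15 hypothalamic neuron markers lay between 1241 and 4091 CPM in 30 libraries. In CON Female 5 it was 157 CPM, with 6 of the 15 at 0, while the summed level of 8 telencephalic markers (Tbr1 and others) was 784 CPM there and 6.10 to 70.02 CPM in the other 30 libraries. The summed level of 10 olfactory bulb markers was 3173 CPM in CON Female 5 and at most 1059 CPM elsewhere; Doc2g stood at 233.8 CPM and Eomes at 165 CPM.

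Among the members, levels per kilobase of exon fell into a high and a low set. Over the 26 libraries Vim (13.04 ± 1.97 CPM per kb, SD, n = 26), Gpr50 (12.2 ± 2.40) and Col23a1 (11.1 ± 2.73) were the most abundant and did not differ beyond their spread. Frzb (3.91 ± 0.934) and Scn7a (3.83 ± 0.980) followed at a clear distance and lay on top of each other, ahead of Nes (2.66 ± 0.533), Rax (2.09 ± 0.737), Lhx2 (1.86 ± 0.401) and Vcan (1.70 ± 0.258), whose neighbours in this order overlapped. Adm was lowest at 0.775 ± 0.309 CPM per kb. The members also differed in how far they varied between libraries: the coefficient of variation of the CPM was 39.8% for Adm, 35.3% for Rax and 20.1 to 25.6% for Scn7a, Col23a1, Frzb, Lhx2 and Nes, and it was 19.8% for Gpr50 and 15.1% for both Vim and Vcan.

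Rax (chromosome 18, 65934639 to 65939089, minus strand; GRCm38, as are all gene positions below), a homeodomain factor needed for tanycyte identity, was a low transcript that ranged from 0.894 to 5.97 CPM over the 26 libraries. CON Female libraries spanned 0.135 to 4.32 CPM with a median of 3.21, OB Female 2.10 to 6.14 with a median of 3.88, CON Male 2.34 to 5.97 with a median of 4.18 and OB Male 1.99 to 4.43 with a median of 3.59. The ranges of all 4 groups overlapped, and the lowest value, 0.135 CPM from 5 read pairs, was that of CON Female 5. Lhx2 (chromosome 2, 38339281 to 38369733, plus strand), a LIM homeodomain factor of the forebrain and of tanycytes, lay between 5.80 and 12.4 CPM in the 26 libraries. In CON Female 5 it reached 28.4 CPM, the opposite direction to Rax in the same library.

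Col23a1 (chromosome 11, 51289920 to 51583918, plus strand) encodes a collagen that spans the cell membrane and is one of the more selective tanycyte transcripts. Its level was 34.1 to 76.7 CPM (median 65.7) in CON Female, 43.2 to 87.8 (median 62.6) in OB Female, 54.6 to 106 (median 69.5) in CON Male and 39.7 to 71.3 (median 64.6) in OB Male. Each group contained libraries on both sides of the others' medians. Vcan (chromosome 13, 89655312 to 89742509, minus strand), a large chondroitin sulphate proteoglycan of the matrix that is also strongly made by oligodendrocyte precursors, was the steadiest member with Vim, at 17.3 to 30.9 CPM over the 26 libraries. Outside them it was 43.0 CPM in OB Female 3 and 14.6 CPM in CON Male 6.

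Vim (chromosome 2, 13573927 to 13582826, plus strand), the filament protein of radial glia, tanycytes, ependyma and vessels, was 46.0 to 91.8 CPM in CON Female (median 64.6), 46.1 to 72.7 in OB Female (median 59.998), 59.99 to 107 in CON Male (median 70.0) and 45.1 to 70.3 in OB Male (median 57.7). The male groups overlapped, but each OB Male value was below the CON Male mean of 73.9 CPM. Nes (chromosome 3, 87971078 to 87980451, plus strand), the filament of neural stem cells, ranged from 11.9 to 24.5 CPM over the 26 libraries with medians of 15.4 to 19.2 CPM in the groups.

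**Figure D1:**
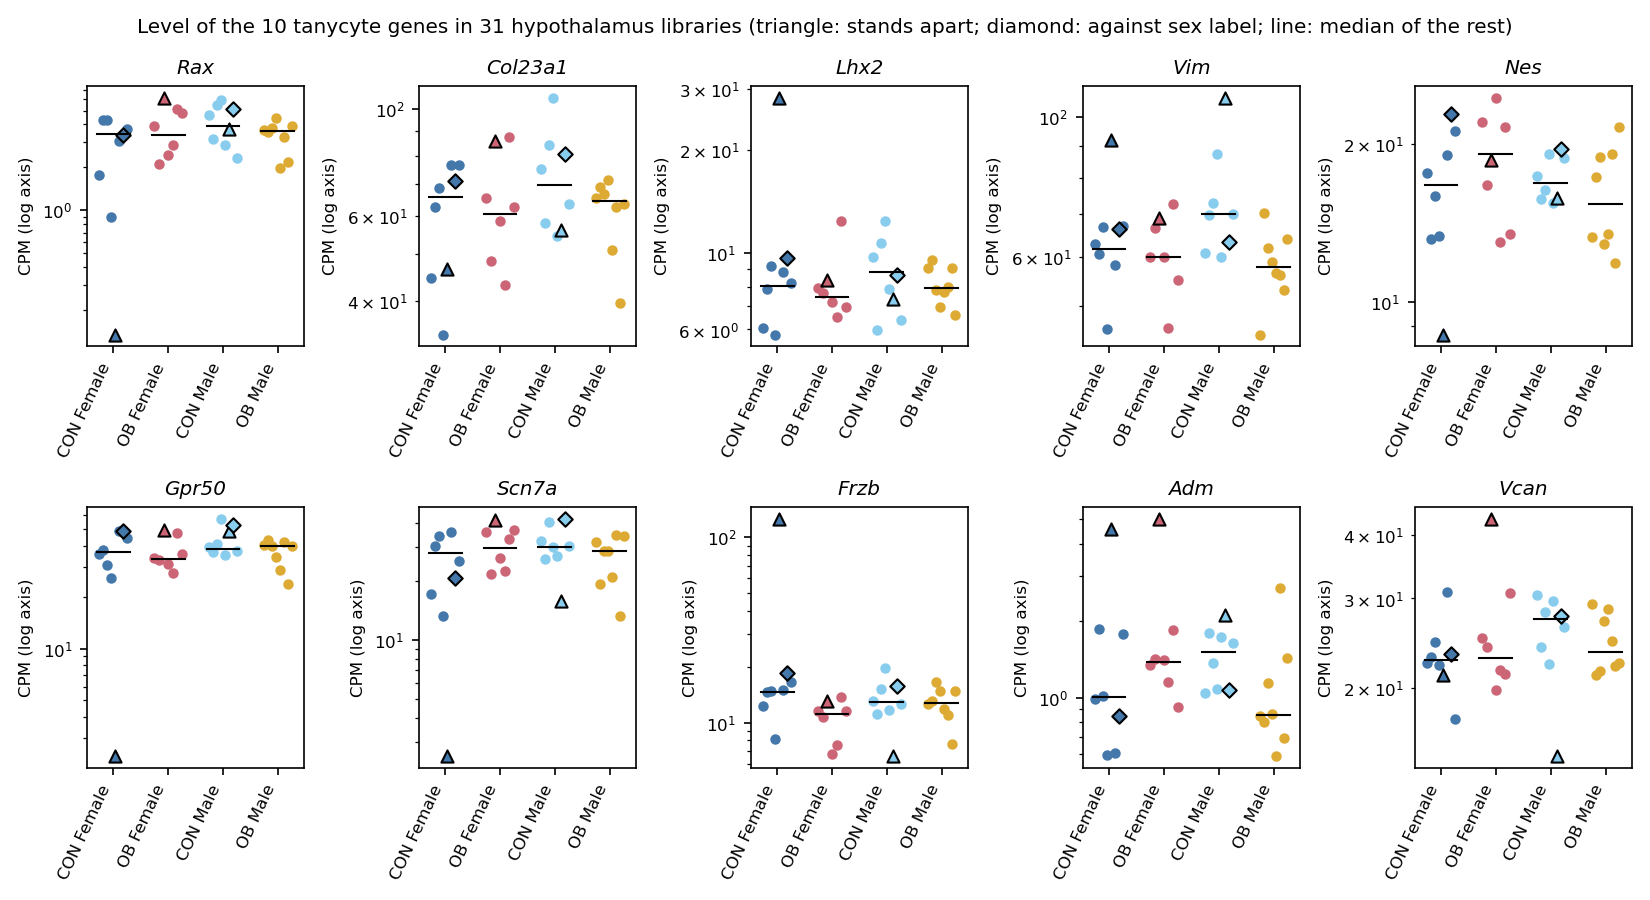
CPM of each of the 10 genes (log axis) in each of 31 libraries, by group; circles are the 26 libraries used throughout, triangles the 3 that stood apart, diamonds the 2 against their sex label, and lines the group medians of the circles. The 4 groups overlap for each gene, and the triangles of CON Female lie far below the others for Rax, Gpr50 and Scn7a and far above them for Frzb and Lhx2.

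Gpr50 (chromosome X, 71663667 to 71669257, plus strand), a relative of the melatonin receptors that binds no melatonin, was abundant for a receptor. It spanned 2.35 to 48.5 CPM in CON Female (median 36.8), 27.7 to 49.5 in OB Female (median 33.8), 35.4 to 57.0 in CON Male (median 39.96) and 23.8 to 42.9 in OB Male (median 39.8). The 2.35 CPM was CON Female 5, and the next lowest of all 31 libraries was 23.8 CPM. Scn7a (chromosome 2, 66673425 to 66784914, minus strand), a sodium channel of glia that responds to extracellular sodium, varied 3.05-fold between the lowest and highest of the 26 libraries, 13.2 and 40.4 CPM, and was 2.54 CPM in CON Female 5.

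Frzb (chromosome 2, 80411970 to 80447625, minus strand) encodes a secreted protein that binds Wnt ligands and blocks their signal. It was 8.13 to 125 CPM in CON Female (median 14.8), 6.76 to 13.7 in OB Female (median 11.6), 6.59 to 19.6 in CON Male (median 12.8) and 7.68 to 16.6 in OB Male (median 12.8). The 125 CPM was CON Female 5 alone, and the other 7 CON Female libraries reached at most 18.5 CPM. Adm (chromosome 7, 110627661 to 110629820, plus strand), the vasodilator peptide adrenomedullin, was at 0.590 to 2.68 CPM in the 26 libraries, from as few as 19 read pairs, and at 4.596 CPM in CON Female 5 and 4.999 CPM in OB Female 3.

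No member passed the test for maternal diet in daughters, and the ranges of OB and CON libraries overlapped for all 10 in either sex (they did not overlap for 0.117% of genes in daughters and 0.016% in sons, or 0.427% and 0.0534% without the 5 libraries). The comparison of OB Female with CON Female called 0 of 10 members by edgeR's quasi-likelihood test at an adjusted p of 0.05, where percent called was 0 of all 18743 genes and 6 genes passed by DESeq2; at an unadjusted p under 0.05 stood 1 member, Frzb, beside 1522 genes (8.12%). In all, 7 members were higher and 3 lower in OB Female, with a median log2 fold change of 0.14, while 52.5% of all genes were lower (median -0.01). Without the 5 libraries the members were again 7 higher and 3 lower, with a median of 0.06, where 51.1% of all genes were lower. Beside them, 11 of 14 hypothalamic neuron markers were higher over all libraries (median 0.14) and 6 of 14 without the 5 (median -0.04), and 10 of 10 meningeal fibroblast markers were lower in both sets (medians -0.50 and -0.32), none called; their part in the members' values was not tested. Frzb was 28.1 ± 39.3 CPM (SD, n = 8) in CON Female and 10.7 ± 2.62 (n = 7) in OB Female, a log2 fold change of -1.39 ± 0.41 (SE; edgeR adjusted p = 0.523), with 0 of 7 libraries above the control mean. CON Female 5, at 125 CPM, raised that mean. Every other CON Female library, at 8.13 to 18.5 CPM, also lay below it. Without the 5 libraries the difference was -0.39 ± 0.18 (edgeR adjusted p = 0.573), and without CON Female 5 alone it was -0.41; in the smaller set 1 of 6 libraries lay above the control mean of 13.6 CPM. Rax differed by 0.54 ± 0.37 over all libraries and by 0.24 ± 0.30 without the 5, and Scn7a by 0.47 ± 0.31 and 0.18 ± 0.23.

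The sign of the daughters' Lhx2 difference turned with those libraries, from -0.36 ± 0.24 to 0.089 ± 0.17, neither past the threshold (edgeR adjusted p = 0.674 and 0.914). So did that of Gpr50, from 0.11 ± 0.29 to -0.094 ± 0.15. In the 26 libraries the 95% intervals of the daughters' differences covered at most -0.76 to -0.02 for Frzb, -0.37 to 0.86 for Rax, -0.40 to 0.43 for Col23a1 and -0.22 to 0.22 for Vim. The data thus bound the diet difference of Vim more tightly than that of Rax.

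In sons all 10 members were lower in OB Male than in CON Male, and no difference passed. With 0 of 10 members called (percent called 0; 1 gene by DESeq2), 1 member stood at an unadjusted p under 0.05, beside 647 genes (3.45%). The median log2 fold change of the members was -0.22 over all libraries and -0.20 without the 5, against 0.00 and 0.01 for all genes, of which 49.9% and 48.0% were lower. The members are not independent of each other, as their correlations below show. Of the markers of other cell types none were called either: 13 of 14 hypothalamic neuron markers were lower (median -0.20; 12 of 14 and -0.09 without the 5 libraries), as were 13 of 13 ependymal cilium genes (-0.38; 13 of 13 and -0.37) and 10 of 10 meningeal fibroblast markers (-0.34; 8 of 10 and -0.23). Of 7 telencephalic markers 5 were higher (median 0.21, and 0.48 without the 5). The part of these cells in the members' values was not tested. The member with the smallest p was Vim at 58.2 ± 7.56 CPM (SD, n = 8) in OB Male and 73.9 ± 16.1 (n = 8) in CON Male, a log2 fold change of -0.34 ± 0.12 (SE; edgeR adjusted p = 0.940). Without the 5 libraries it was -0.27 ± 0.10 (edgeR adjusted p = 0.9996), with 1 of 8 OB Male libraries above the control mean of 70.2 CPM.

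Col23a1 was 61.2 ± 10.6 CPM in OB Male against 72.3 ± 17.7 in CON Male, and 0 of 8 OB Male libraries were above the control mean, with or without the 5 libraries. Its log2 fold change of -0.24 ± 0.17 (interval -0.58 to 0.10) was within the spread. Gpr50 differed by -0.25 ± 0.28, Rax by -0.32 ± 0.35, Adm by -0.38 ± 0.39, Scn7a by -0.20 ± 0.30 and Vcan by -0.05 ± 0.14. Each of these 5 differences was smaller than its standard error in the fit over all libraries. That fit takes its spread from all 4 groups, including CON Female 5 with 2.35 CPM of Gpr50 and 2.54 CPM of Scn7a. With single libraries left out, the smallest unadjusted edgeR p was 0.0754 for Gpr50, 0.0836 for Adm and 0.222 for Rax. It was 0.292 for Vcan and 0.321 for Scn7a, and no edgeR adjusted p of these 5 was below 0.811.

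**Figure D2:**
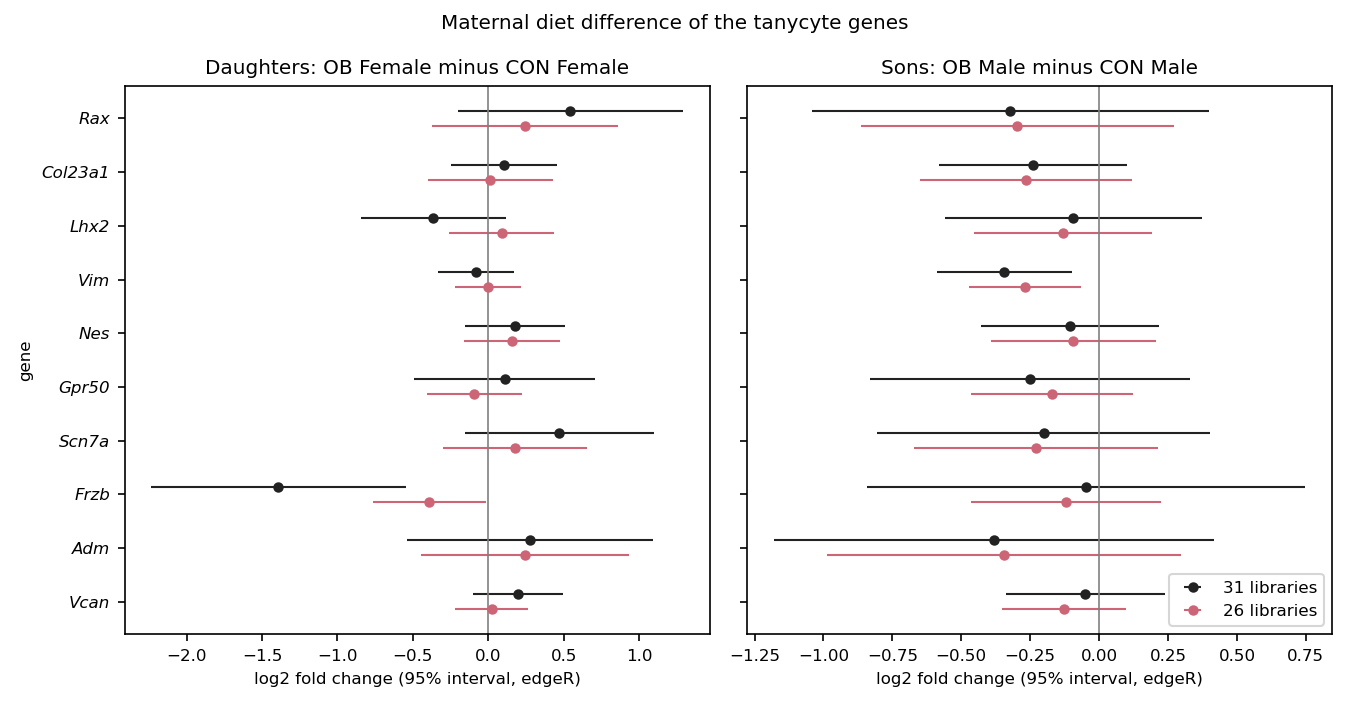
Log2 fold changes of the 10 genes between maternal diets (x axis, OB minus CON) in daughters and sons; points are edgeR estimates with 95% intervals, over 31 libraries in black and over 26 in red. The daughters' Frzb estimate moves from -1.39 to -0.39, and in sons all 10 estimates lie below 0 with most intervals crossing it.

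The diet differences of the sexes were also compared with each other. Of 10 members 0 were called (percent called 0; 6 genes by DESeq2), and 679 genes (3.62%) had an unadjusted p under 0.05. Frzb had the largest difference between daughters and sons, -1.34 ± 0.56 (edgeR adjusted p = 0.9996), which was -0.27 ± 0.25 without the 5 libraries. Averaged over the sexes, Vim differed by -0.21 ± 0.087 and Frzb by -0.72 ± 0.28, and by -0.14 ± 0.07 and -0.26 ± 0.12 without the 5. Of 10 members 0 passed here too (percent called 0; 5 genes by DESeq2; 1918 genes, 10.2%, at an unadjusted p under 0.05, 2 members among them).

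Between the sexes within a maternal diet, 0 of 10 members were called in either comparison over all libraries (percent called 0 in both; DESeq2 called 1 gene in controls and 12 in obesogenic offspring). At an unadjusted p under 0.05 stood 823 genes (4.39%) in controls, with 1 member, and 681 (3.63%) in obesogenic offspring, with 0 members. In controls Frzb was higher by 1.09 ± 0.39 in CON Female than in CON Male over all libraries and differed by -0.04 ± 0.18 without the 5. Over all libraries 7 members were lower and 3 higher in CON Female than in CON Male (median -0.16; 51.1% of all genes lower), and 8 and 2 without the 3 libraries that stood apart. Without all 5 the members were 10 lower and 0 higher (median -0.22), where 49.3% of all genes were lower and 11 genes (0.0588%) were called, none a member. The 13 ependymal cilium genes were also lower in both sets (medians -0.32 and -0.16), while the 14 hypothalamic neuron markers were 14 lower over all libraries and 6 lower without the 5; their part was not tested. Against OB Male, OB Female had 9 members higher and 1 lower over all libraries (median 0.09; 51.3% of all genes lower), and 6 higher and 4 lower in the 26 (median 0.03), where 51.6% of all genes were lower and 14 genes (0.0749%) were called, none a member.

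Although the groups did not separate, members other than Adm and Vcan moved together, to differing degrees, from library to library. Each gene's log2 CPM was expressed as its deviation from the group mean, over the 26 libraries, and the 45 pairs were tested by permutation within groups (100000 resamples, two-sided; p-values adjusted over the 45 pairs). Of the 45 pairs 38 were positive and 20 passed by Pearson's r, all of them positive. These 20 also passed by Spearman's rho, together with the negative pair of Vim and Vcan. The median r was 0.43, against 0.01 for members with all other tested genes. The 95th percentile of r with those other genes lay between 0.334 for Scn7a and 0.578 for Vcan, and was 0.558 for Vim. Passing pairs differed in how far they stood out. Only 0.00534% of genes had a higher r with Rax than Col23a1 had. With Vim, 4.08% of genes had a higher r than Nes and 4.71% a higher r than Gpr50. The closest pair was Rax with Col23a1, r = 0.866 (permutation p = 1e-05, the smallest it can give; adjusted p = 0.00015) and rho = 0.795 (p = 3e-05). Without the 2 libraries farthest from the median of Rax the r was 0.839.

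5 members, Rax, Col23a1, Gpr50, Scn7a and Frzb, formed the tightest set, a group picked after the values had been seen. All 10 pairs among them passed, with r from 0.607 (Gpr50 with Scn7a) to 0.866, rho from 0.489 to 0.856, and adjusted permutation p-values of at most 0.0107 for r and 0.0489 for rho. With the 2 most distant libraries left out, r ranged from 0.361 to 0.839; the weakest, Gpr50 with Scn7a at 0.361, rested in part on those libraries. All 10 pairs were positive within each of the 4 groups, from 0.59 to 0.948 in CON Female, 0.18 to 0.966 in CON Male, 0.584 to 0.915 in OB Female and 0.679 to 0.885 in OB Male, with 6, 6, 6 and 8 libraries. These are the same libraries that gave the pooled r. No pair of members passed within a group (exact permutation test, smallest adjusted p = 0.167 over 180 tests). Of the 45 pairs of all members, 41 were positive in CON Female, 30 in CON Male, 38 in OB Female and 30 in OB Male. Col23a1 followed Gpr50 at r = 0.846 (adjusted permutation p = 0.00015; rho = 0.742) and Frzb at r = 0.84 (adjusted p = 0.00015; rho = 0.856). Both ends of the Rax range in the 26 libraries showed it: CON Male 4, with 5.97 CPM of Rax, had 106 CPM of Col23a1 and 19.6 CPM of Frzb, and CON Female 4, with 0.894 CPM, had 34.1 and 8.13 CPM. CON Female 4 also had the highest summed level of 9 pituitary markers, 6204 CPM against at most 1248 CPM in any other library; over the 26 libraries the pituitary list passed with no member.

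**Figure D3:**
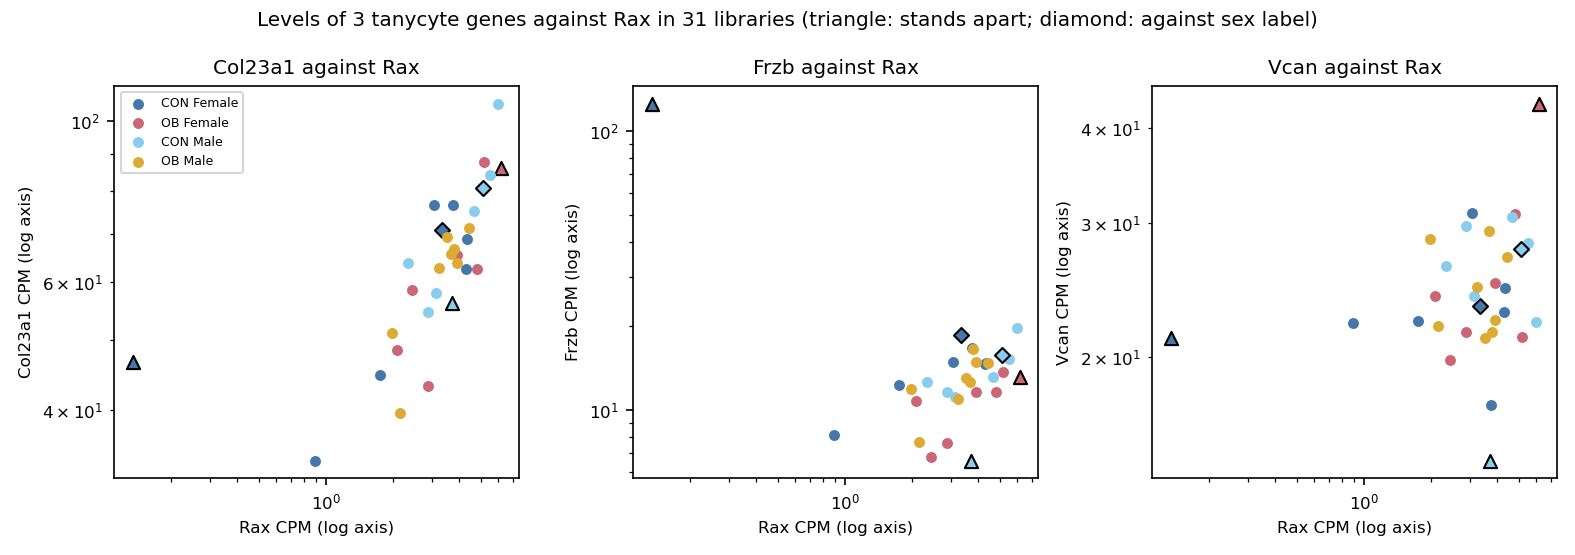
CPM of Col23a1, Frzb and Vcan against CPM of Rax (log axes) in 31 libraries, coloured by group, with triangles for the 3 libraries that stood apart and diamonds for the 2 against their sex label. Col23a1 and Frzb rise with Rax among the circles (r = 0.866 and 0.774 in the 26 libraries), Vcan does not (r = 0.058), and CON Female 5 lies away from the circles at 0.135 CPM of Rax.

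Lhx2 passed with Rax (r = 0.602, rho = 0.603, adjusted permutation p = 0.00779 for r) and with Col23a1 (r = 0.68, rho = 0.692, adjusted p = 0.00355), Gpr50 and Frzb. Within OB Male alone, with 8 libraries, Lhx2 was negative with each of them. There r was -0.314 with Rax, -0.259 with Col23a1, -0.0549 with Gpr50 and -0.51 with Frzb. In each of the other groups these pairs were positive. Vim passed with Col23a1, Frzb, Gpr50 and Nes (r = 0.565 to 0.652) but its pair with Rax did not (r = 0.453, rho = 0.427, adjusted permutation p = 0.0627). Nes passed with Vim, Gpr50 and Col23a1. By Pearson's r, Adm and Vcan passed with no other member. Vcan with Vim gave r = -0.427 and rho = -0.476 (adjusted permutation p = 0.0842 and 0.0489), so it passed by rho alone, and Vcan with Nes gave r = -0.39 (adjusted p = 0.127). When all 31 libraries were used, 10 of the 45 pairs passed, and Frzb was negative with Rax (-0.387), Gpr50 (-0.626) and Scn7a (-0.408), whose values in CON Female 5 are given above.

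**Figure D4:**
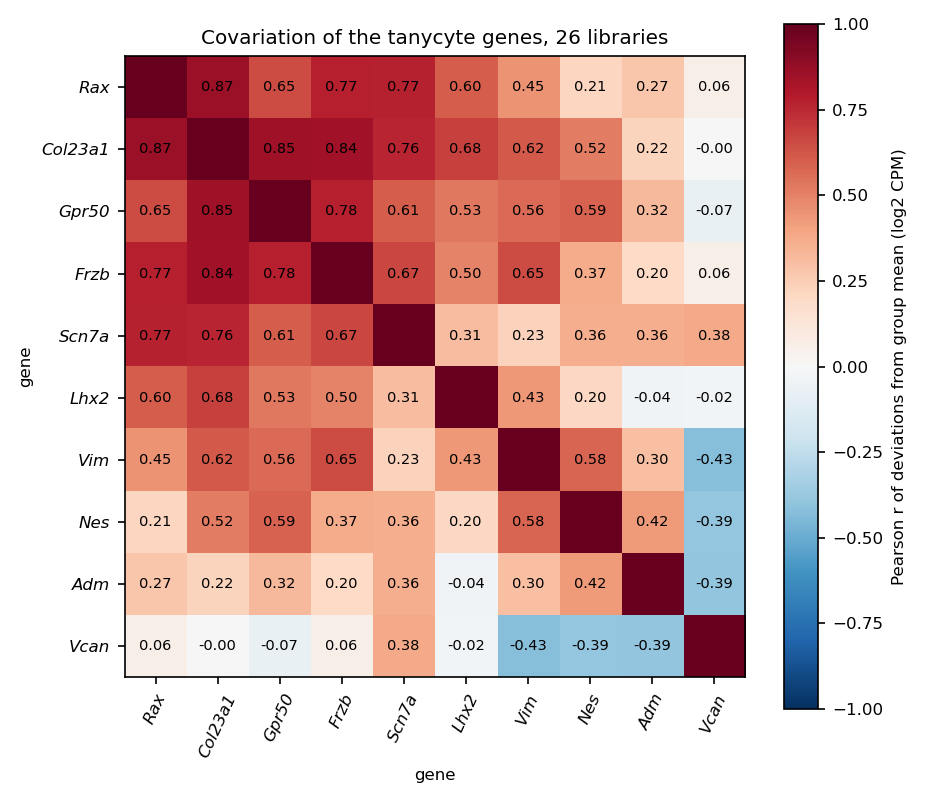
Pearson r between the 10 genes (both axes), from deviations of log2 CPM from the group mean over 26 libraries; red is positive and blue negative. The block of Rax, Col23a1, Gpr50, Frzb and Scn7a holds r from 0.607 to 0.866, and the rows of Adm and Vcan reach at most 0.425.

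As neighbours outside the member list, the gene most like Rax was Fzd5 (r = 0.905), a Frizzled receptor for Wnt ligands, followed by Fndc3c1 (r = 0.781) besides Col23a1, Frzb and Scn7a. Fndc3c1 was also the gene closest to Scn7a, at r = 0.963. Edem2 was closest to Lhx2 (0.827), Zfas1 to Vim (0.852), Churc1 to Nes (0.792), Echdc3 to Adm (0.673) and Zbtb33 to Vcan (0.838). These values describe the 26 libraries over 15071 named genes ranked, and no test was made of them. The libraries share a tissue label but differ in total read pairs and in marker levels of other tissue.

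Of the marker lists, each summarised by its mean log2 CPM, 5 of 200 member and list pairs passed by Pearson's r (adjusted over the 200). Scn7a followed the other 21 tanycyte genes tested, a list with Dio2, Crym and Fgf10, at r = 0.835 (rho = 0.846, adjusted permutation p = 0.002), and Col23a1 did so at r = 0.666 (rho = 0.587, adjusted p = 0.0296 for r and 0.115 for rho). Vim followed the 13 ependymal cilium genes at r = 0.656 (rho = 0.658, adjusted permutation p = 0.0296). Col23a1 and Gpr50 ran against the 7 telencephalic genes, at r = -0.678 (rho = -0.641, adjusted permutation p = 0.022 for r and 0.046 for rho) and r = -0.654 (rho = -0.578, adjusted p = 0.0296 and 0.115). Gpr50 with the 8 oligodendrocyte precursor markers passed by rho alone (rho = -0.677, adjusted permutation p = 0.0433; r = -0.551, adjusted p = 0.116). When the 2 libraries against their sex label were put back, Scn7a with the tanycyte list (r = 0.831) and Vim with the ependymal list (r = 0.658) still passed. Col23a1 with the tanycyte list (r = 0.617, adjusted permutation p = 0.0947) and with the telencephalic list (r = -0.555, adjusted p = 0.138) did not, nor did Gpr50 with the telencephalic list (r = -0.462, adjusted p = 0.245). Among the 26 libraries the highest telencephalic sum was 70.02 CPM, in OB Male 7, which held the lowest OB Male levels of Col23a1, Gpr50, Scn7a and Frzb; the part of tissue from outside the hypothalamus in the members' shared variation was not tested. Over the 26 libraries, total pairs and the number of genes with reads passed with no member. The mean of 82 cytosolic ribosomal protein genes passed with Vim (r = 0.751, rho = 0.791, adjusted permutation p = 0.0027), Nes (r = 0.68, rho = 0.676, adjusted p = 0.0069) and Vcan (r = -0.654, rho = -0.612, adjusted p = 0.0077), and with none of the 5 tightest members. Of those 5, Frzb came nearest (r = 0.424, rho = 0.545, adjusted permutation p = 0.233 and 0.0649). Col23a1 (r = 0.407, rho = 0.476) and Gpr50 (r = 0.384, rho = 0.36) followed, ahead of Rax (r = 0.168) and Scn7a (r = 0.0395).

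**Figure D5:**
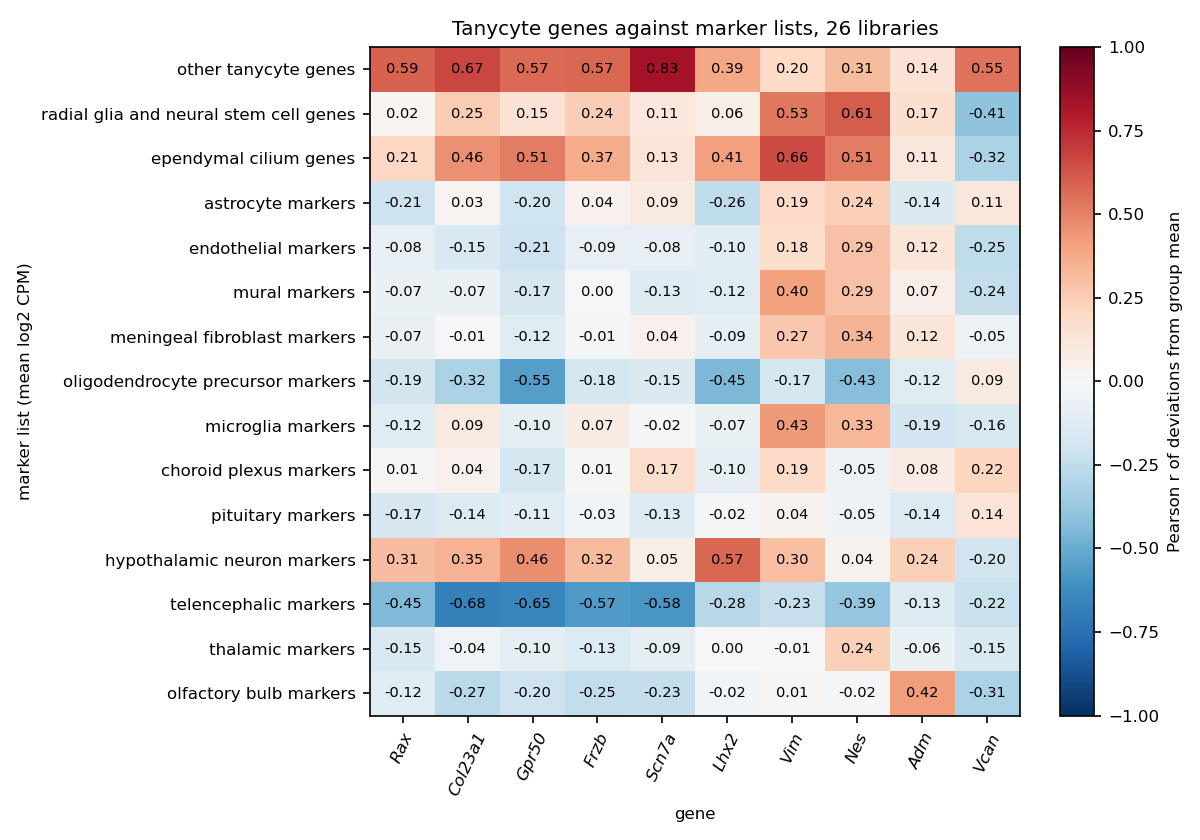
Pearson r of the 10 genes (x axis) with the mean log2 CPM of 15 marker lists (y axis), from deviations from the group mean over 26 libraries. Scn7a stands at 0.835 with the other tanycyte genes, Vim at 0.656 with the ependymal genes, and Col23a1 and Gpr50 at -0.678 and -0.654 with the telencephalic genes.

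The upstream sequences of 3 of the covarying members are printed to show what the start regions of genes that moved together hold. They are 250 bases before the annotated start in RefSeq (GRCm38.p6), 5′ to 3′ on the gene's strand, in lower case, with capitals for a match to TGGGAA, the core bound by the Notch effector RBPJ, on either strand.
Col23a1, chr11:51289670-51289919 plus strand: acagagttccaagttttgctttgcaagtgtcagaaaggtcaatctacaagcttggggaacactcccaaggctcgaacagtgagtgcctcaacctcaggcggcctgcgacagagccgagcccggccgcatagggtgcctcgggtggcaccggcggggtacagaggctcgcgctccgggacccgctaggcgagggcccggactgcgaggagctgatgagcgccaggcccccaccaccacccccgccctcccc
Gpr50, chrX:71663417-71663666 plus strand: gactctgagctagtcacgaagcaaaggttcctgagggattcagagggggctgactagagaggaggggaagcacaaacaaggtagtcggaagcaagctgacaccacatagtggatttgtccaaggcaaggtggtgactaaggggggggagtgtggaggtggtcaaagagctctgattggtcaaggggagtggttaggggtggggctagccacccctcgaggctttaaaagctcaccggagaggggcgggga
Scn7a, chr2:66784911-66785160 minus strand: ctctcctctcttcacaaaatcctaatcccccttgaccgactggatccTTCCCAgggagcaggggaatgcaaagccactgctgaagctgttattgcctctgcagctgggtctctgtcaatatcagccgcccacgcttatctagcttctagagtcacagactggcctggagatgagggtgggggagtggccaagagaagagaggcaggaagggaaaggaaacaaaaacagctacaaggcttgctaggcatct

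The Scn7a match starts 203 bases before the gene start. TGGGAA on either strand stood in the windows of Adm, Frzb, Lhx2 (both annotated starts), Scn7a and Vcan, of the 9 members searched, and in 21.6% of all 32817 windows of the same length. Rax was left out of this search. TAATTA, the core of homeodomain sites, and ACGTG, the core of hypoxia response sites, stood in 0 of these windows (4.8% and 16.6% of all windows hold them). The Col23a1 window was 66.0% G and C, that of Gpr50 56.8% and that of Scn7a 53.2%. A match or its absence is a description of these letters and says nothing about binding.

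The wider gene groups to which members belong were read from the same tests, and no gene of them passed in either diet comparison by edgeR. Of the 22 other tanycyte genes 21 were tested: in daughters 13 were lower and 8 higher (median log2 fold change -0.05), in sons 10 and 11 (median 0.00). Ptn, a heparin-binding growth factor, differed by -0.61 ± 0.21 in daughters, and Dio2, the deiodinase that activates thyroid hormone in tanycytes, by -0.77 ± 0.33; without the 5 libraries they differed by -0.17 ± 0.08 and -0.39 ± 0.22, and Dio2 was 106 CPM in CON Female 5. Of 13 ependymal cilium genes tested, which the tanycyte layer adjoins, all 13 were lower in sons, with no gene called. Their median was -0.38, and -0.37 without the 5 libraries. In daughters 9 were higher and 4 lower over all libraries, median 0.13. Without the 5 libraries the daughters' direction turned, with 5 higher and 8 lower, median -0.05. Of the 11 radial glia and stem cell genes 7 were lower and 4 higher in sons, median -0.11, and in daughters 5 and 6.

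Genes listed as relatives or possible partners of Frzb, Vcan and Adm were read as well. Axin2, a feedback target of Wnt signalling, was 22.96 to 27.8 CPM in the 6 OB Female libraries of the smaller set and 18.2 to 22.7 CPM in the 6 CON Female, ranges that did not overlap, as for 80 of 18743 genes (0.427%). On the log2 scale it differed by 0.34 ± 0.08 (edgeR adjusted p = 0.543), and by 0.26 ± 0.10 over all libraries. In that smaller set Sfrp5, a secreted relative of Frzb, differed by -0.55 ± 0.20. Adamts1, a protease that cuts versican, differed by 0.44 ± 0.13 in daughters (edgeR adjusted p = 0.523) and by 0.27 ± 0.13 in sons. Of 6 tested genes on a list for Adm reception and processing, 3 were lower and 3 higher in daughters, and 4 and 2 in sons. On that list Ramp1 differed by -0.29 ± 0.16 in daughters and -0.30 ± 0.16 in sons. Gpr182 differed by -1.07 ± 0.36 in sons, which was -0.43 ± 0.27 without the 5 libraries (CON Male 6 held 9.06 CPM). Whether either gene serves Adm in this tissue was not tested. The melatonin receptor relatives of Gpr50 were sparse: Mtnr1b had 0 reads in all libraries and Mtnr1a differed by 0.72 ± 0.66 in daughters.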

How the data were processed

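The authors deposited 1 table of raw counts, whole read pairs per gene for 31 libraries, counted per the file headers by featureCounts 1.6.2. The annotation was Ensembl release 94 (GRCm38), pairs needed both mates aligned at a mapping quality of 10 or more, and strand was taken as reverse. TopHat2 2.0.13, FastQC, Subread and edgeR were named in the submitters' processing notes. RNA came from the whole hypothalamus. 0 per-sample columns were left unused.

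From these counts, edgeR 4.0.16 (R 4.3.3) kept 18743 genes with filterByExpr, scaled with TMM and tested 1 mean per group over all libraries with quasi-likelihood fits; p-values were adjusted (Benjamini-Hochberg) over all genes, threshold 0.05. Levels are TMM-scaled CPM; per-kilobase values use exon length. A library counted as standing apart if its median correlation with the rest fell more than 3 median absolute deviations under the typical value. Sex-linked reads were checked against labels. Covariation used log2 CPM with a prior count of 2. Named genes were the 10 members, at most the 4 genes of smallest p in each list described, and the gene most like each member (5 for Rax); 1 gene that this rule took is not reported here. Alternatives were DESeq2 1.42.0, limma voom 3.58.1 with quality weights, 2 surrogate variables (sva 3.50.0), RLE scaling, other filters, only the groups compared and leaving out libraries. Members, lists and tests were chosen with earlier results of these data known; the covariate and within-group correlations were chosen after the values were seen. Scripts were tested on simulated data.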

Additional observations from a re-analysis of the deposited data

Results flagged for a closer look

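Of 40 sets of a member in a group, 7 held a library whose gap to its nearest neighbour was large for the range of the group by Dixon's test; chance gives about 1 in 20. CON Female 5 gave 4 of them. Its Lhx2 level was 28.4 CPM, against 5.80 to 9.71 in the other CON Female libraries. Its Vim level was 91.8 CPM, against 46.0 to 67.0, its Frzb level 125 CPM, against 8.13 to 18.5, and its Adm level 4.60 CPM, against 0.596 to 1.85.

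Adm was also high in OB Female 3, at 4.999 CPM against 0.917 to 1.85 in the other libraries of its group, and in OB Male 6, at 2.68 CPM against 0.590 to 1.42. Lhx2 in OB Female 6 was 12.4 CPM, against 6.53 to 8.37. OB Female 3 stood apart from the other libraries as a whole, while OB Female 6 and OB Male 6 did not.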

How the results depend on the processing

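No member was called in any of 250 combinations of comparison and setting (smallest adjusted p of a member 0.227, Frzb in daughters). Of 2500 member fold changes under alternatives, 2425 moved by less than their standard error and 75 by more: 18 with 2 surrogate variables, 13 each with limma voom, without the libraries that stood apart and without both kinds of doubtful library, 10 without CON Female 5, and 4 each with DESeq2 and without OB Female 3. Counts of genes called, 0 in each comparison, became with DESeq2 6 for diet in daughters, 1 in sons, 5 for their mean, 6 for their difference, 1 for sex in controls and 12 for sex in obesogenic offspring. Sex in controls gave 10 without the libraries against their sex label, 11 without both kinds, and 0 to 6 when single libraries were left out, with 6 without CON Female 7. Sex in obesogenic offspring gave 3 with limma voom, 6 with 2 surrogate variables, 12 with only the groups compared, 1 without the libraries that stood apart, 9 without those against their sex label, 14 without both, and 0 to 9 when single libraries were left out, with 9 without CON Female 7. Of the 45 member pairs 10 passed with all libraries instead of 20; of the member and list pairs 10 passed with all libraries and 2 with 28 instead of 5. The cause was not tested. Depth left Adm with 19 read pairs at the lowest, which limits its precision. No paired analysis was possible because the labels give no replicate numbers shared between groups.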
